A study of Mus musculus with 15 samples.

Results

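Expression of 9 endplate and denervation-response genes was examined in the gastrocnemius, a calf muscle, of 15 aged female C57BL/6JN mice. The genes were Chrna1, Chrnb1, Chrnd, Chrne and Chrng, which encode the subunits of the muscle acetylcholine receptor, together with Ache, Ncam1, Runx1 and Gadd45a. They were taken by symbol from a list of neuromuscular junction and denervation-response genes. All 9 were found among the 55450 genes counted, and all 9 were among the 16920 genes that passed the filter on low counts. Each mouse gave 1 bulk RNA-seq library, and the mice were older than 17 months. Low Control (n = 4) and High Control (n = 3) mice stayed sedentary in their cages. Low Run (n = 4) and High Run (n = 4) mice ran downhill in 2 bouts on a treadmill (22° decline, 13 m/min), and the muscle was taken 24 h after the last bout. Low mice, called robust in the sample labels, carried at most 1 frailty marker, and High mice, called frail, carried at least 2. The labels give no transgene or drug for any group, and frailty status was assigned retrospectively according to the methods of the study. Libraries held 19395125 to 30699216 counted read pairs. The 7 muscle fibre markers examined, which include Acta1, Ckm and the myosin heavy chain genes, summed to between 91670 and 152100 CPM, that is counts scaled by library size, in every library.

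The muscle acetylcholine receptor is a channel built from alpha1, beta1 and delta subunits and a further subunit that is gamma in fetal or denervated fibres and epsilon at the mature endplate. In innervated adult fibres, transcription of the receptor genes is largely restricted to the few nuclei beneath the nerve terminal, and muscle activity silences the other nuclei. When a fibre loses its nerve or its activity, the myogenic regulator myogenin drives alpha1, beta1, delta and gamma along the whole fibre, and Ncam1, Runx1 and Gadd45a are induced as well. In a bulk muscle sample, fewer nuclei of a kind and less RNA per nucleus cannot be told apart.

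Short regulatory sequences upstream of 4 of the receptor genes are shown because E-boxes, the sites read by myogenin and related factors, are the known link between fibre activity and these promoters. The sequences are those of RefSeq on mouse genome build GRCm38.p6 (mm10), 5′ to 3′ on the strand of the gene. The windows begin 160 bases before the annotated start (130 for Chrnb1) and end 23 bases before it, and they contain no exon of the GENCODE annotation. They lie at chr2:73580361-73580498 (minus strand) for Chrna1, chr1:87205651-87205788 (plus strand) for Chrng, chr11:70619217-70619354 (minus strand) for Chrne and chr11:69795960-69796067 (minus strand) for Chrnb1. The Chrng window falls inside the gene as GENCODE draws it, between exons, because GENCODE begins the gene upstream of the RefSeq start. Capitals mark E-boxes (CANNTG) and N-boxes (CCGGAA, a site of ETS factors known from synapse-specific promoters), both searched on both strands.
Chrna1: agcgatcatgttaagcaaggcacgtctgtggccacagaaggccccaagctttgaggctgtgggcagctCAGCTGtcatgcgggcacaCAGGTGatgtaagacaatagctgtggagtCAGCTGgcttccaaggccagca
Chrng: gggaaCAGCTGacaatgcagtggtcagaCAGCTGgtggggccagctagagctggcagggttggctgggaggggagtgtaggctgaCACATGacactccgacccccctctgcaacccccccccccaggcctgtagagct
Chrne: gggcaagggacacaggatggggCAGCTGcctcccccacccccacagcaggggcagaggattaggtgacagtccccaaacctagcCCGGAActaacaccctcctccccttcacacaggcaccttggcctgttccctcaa
Chrnb1: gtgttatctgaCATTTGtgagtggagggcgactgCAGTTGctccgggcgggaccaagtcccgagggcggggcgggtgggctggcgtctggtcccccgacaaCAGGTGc
In the 250 bases before the start, Chrna1 and Chrng each held 3 E-boxes, of which 2 had the letters CAGCTG. Those 2 lay 92 and 44 bases before the start in Chrna1 and 155 and 132 bases before it in Chrng. At least 2 copies of CAGCTG were found in 1.26% of all 32851 promoter entries, and at least 2 E-boxes of any kind in 31.8%. Chrnb1 held 3 E-boxes, none of them CAGCTG. Chrne held 1 CAGCTG, which was present at least once in 13.0% of entries, and 1 N-box 76 bases before the start, a motif present in 12.0%. Runx1 had 2 entries, and the one with the upstream start held 3 E-boxes, whereas the other held 1 N-box and no E-box. Gadd45a held 1 E-box and 1 N-box, and Ache held 1 E-box. CANNTG contains CAGCTG, so these counts overlap, and a match of letters is a description and not a binding site.

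The genes lie on 7 chromosomes in build mm10. Chrnd (ENSMUSG00000026251, chr1:87190607-87200070) and Chrng (ENSMUSG00000026253, chr1:87204657-87212694) are neighbours on the same strand. Chrnb1 (ENSMUSG00000041189, chr11:69784036-69795943) and Chrne (ENSMUSG00000014609, chr11:70614883-70619216) share a chromosome, and Chrna1 (ENSMUSG00000027107) lies at chr2:73563215-73580338. Ache (ENSMUSG00000023328) lies at chr5:137287519-137294466, Ncam1 (ENSMUSG00000039542) at chr9:49502136-49798925, Runx1 (ENSMUSG00000022952) at chr16:92601466-92826149 and Gadd45a (ENSMUSG00000036390) at chr6:67035096-67037457. Read pairs were counted over exons. Exons of a gene on the opposite strand overlapped those of Gadd45a over 337 bases, Ncam1 over 417, Runx1 over 106 and Ache over 98, and the counts of these 4 genes may be less certain there. The study's methods name same-strand counting, whereas how the library kit marks strand is not given in the sources used here.

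Per kilobase of exon, Gadd45a, a stress-induced growth arrest gene, was the most abundant of the 9 at 69.7 CPM per kb, averaged over the 15 mice. Among the receptor subunits the order of these levels was Chrnb1 at 27.6, Chrne at 10.6, Chrna1 at 7.65, Chrnd at 1.73 and Chrng at 0.279 CPM per kb. Chrne, the adult subunit gene, was thus well above Chrng, the fetal one. Ache, which encodes the enzyme that breaks down acetylcholine in the synaptic cleft, stood at 7.33 CPM per kb, next to Chrna1, and the ranges of the 2 genes over mice overlapped. Ncam1, a neural cell adhesion molecule that spreads over denervated fibres, stood at 1.56 CPM per kb. Runx1, a transcription factor induced in denervated fibres, stood at 1.00 CPM per kb. Of neighbours in this order, Chrnb1 and Chrne were the one pair whose ranges over the 15 mice did not overlap. When the longest transcript was used as the length, 4 of the 9 genes kept their rank, and Chrna1 and Ache changed places.

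Downhill running came with higher mean levels of the receptor genes other than Chrne in both Low and High mice, but the mice within a group differed widely and no gene passed the threshold of a false discovery rate (FDR) of 0.1. The values of each mouse are given first. Chrna1 reached 18.9, 20.1, 32.7 and 35.7 CPM in the Low Control mice and 22.99, 33.8, 39.3 and 62.6 CPM in the Low Run mice. It reached 19.9, 21.8 and 31.3 CPM in the High Control mice and 32.5, 37.0, 46.2 and 48.3 CPM in the High Run mice. Every High Run mouse was thus above every High Control mouse, whereas the Low groups overlapped, with the Low Run mouse D57 far above the rest. Chrnb1 ranged from 44.0 to 70.1 CPM in Low Control, 57.7 to 92.0 in Low Run, 49.5 to 62.3 in High Control and 59.99 to 114 CPM in High Run. The highest Chrnb1 value was that of the High Run mouse D62, and the groups overlapped within both frailty classes. Chrnd, the delta subunit gene, was at 3.31, 4.12, 5.13 and 7.43 CPM in Low Control, 4.81, 5.01, 8.87 and 9.67 in Low Run, 3.59, 3.95 and 4.09 in High Control and 3.79, 4.57, 7.08 and 9.63 CPM in High Run. Set against the Control mice of both classes, 2 Low Run mice and 1 High Run mouse lay above all of them, and the rest lay within their range. Against High Control alone, every High Run mouse but D53 (3.79 CPM) lay higher.

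**Figure D1:**
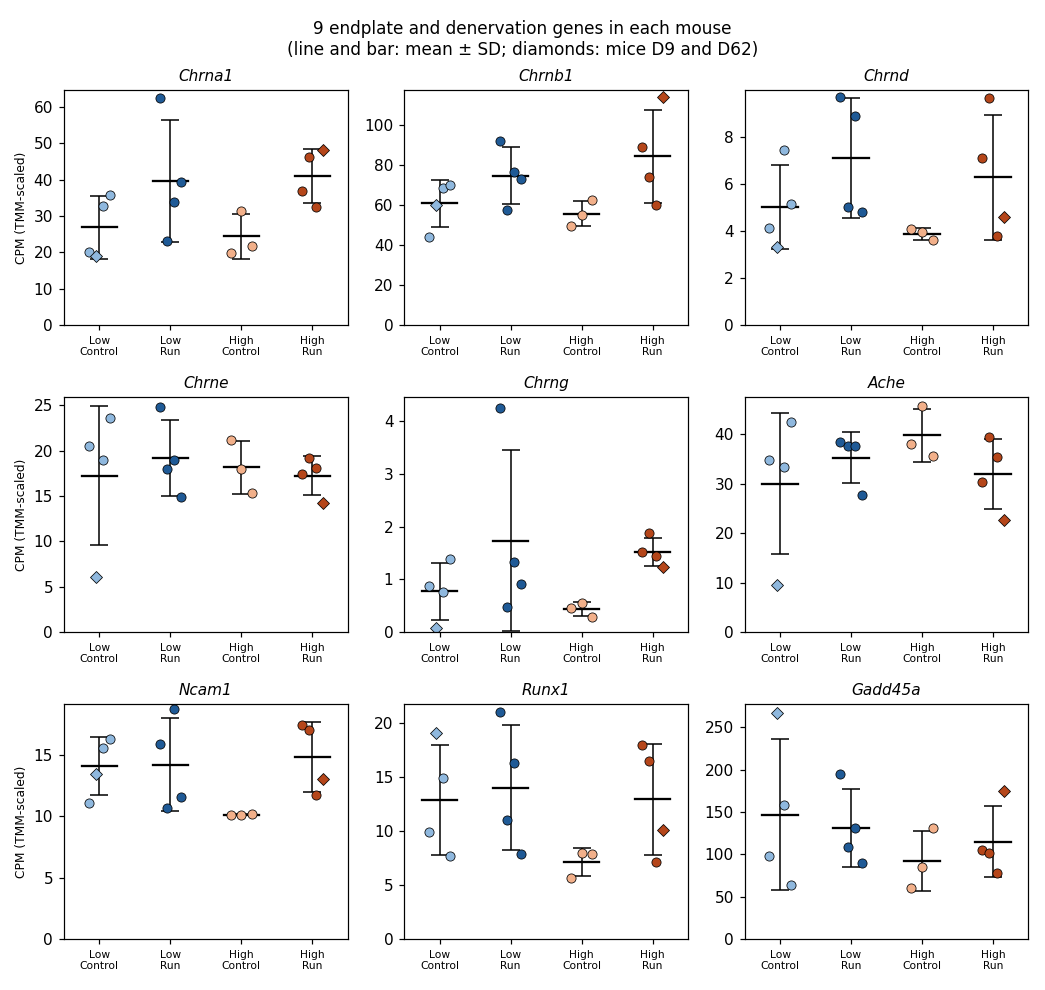
CPM of each of the 9 genes (y axis, from 0) in each of the 15 mice, by group (x axis), with the group mean and SD as a line and a bar; diamonds mark D9 and D62. Chrna1, Chrng and Ncam1 are higher in all 4 High Run mice than in all 3 High Control mice, and Chrne and Ache are lowest in the Low Control mouse D9.

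The fetal subunit gene Chrng was the least abundant member and, in the Low groups, the most variable. It was detected by 2 to 101 read pairs per library, so that counting error is large in the lowest libraries. It reached 0.0828, 0.752, 0.868 and 1.39 CPM in Low Control and 0.468, 0.902, 1.32 and 4.25 CPM in Low Run. It reached 0.287, 0.463 and 0.554 CPM in High Control and 1.23, 1.44, 1.52 and 1.88 CPM in High Run. The High groups did not overlap, and the Low groups did. The extremes were D9 among the Low Control mice, with 2 read pairs, and D57 among the Low Run mice, with 101. Chrne, in contrast, had almost the same mean in all groups, at 17.3 ± 7.71 CPM in Low Control, 19.2 ± 4.14 in Low Run, 18.1 ± 2.93 in High Control and 17.2 ± 2.16 CPM in High Run (SD; n = 4, 4, 3 and 4). Its lowest value, 6.04 CPM, was again that of D9. Expressed per kb of exon, Chrng amounted to 0.968 ± 0.255% of Chrne in High Control and 3.57 ± 0.302% in High Run, and to 1.57 ± 0.76% in Low Control and 3.32 ± 2.53% in Low Run (SD). The 4 High Run mice spanned 3.24 to 3.97% and the 3 High Control mice 0.761 to 1.25%. An exact two-sided permutation test of this share gave p = 0.0571 in High mice, the smallest value that 4 against 3 mice allow, and p = 0.229 in Low mice (0.114 and 0.229 after adjustment over the 2 tests).

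**Figure D2:**
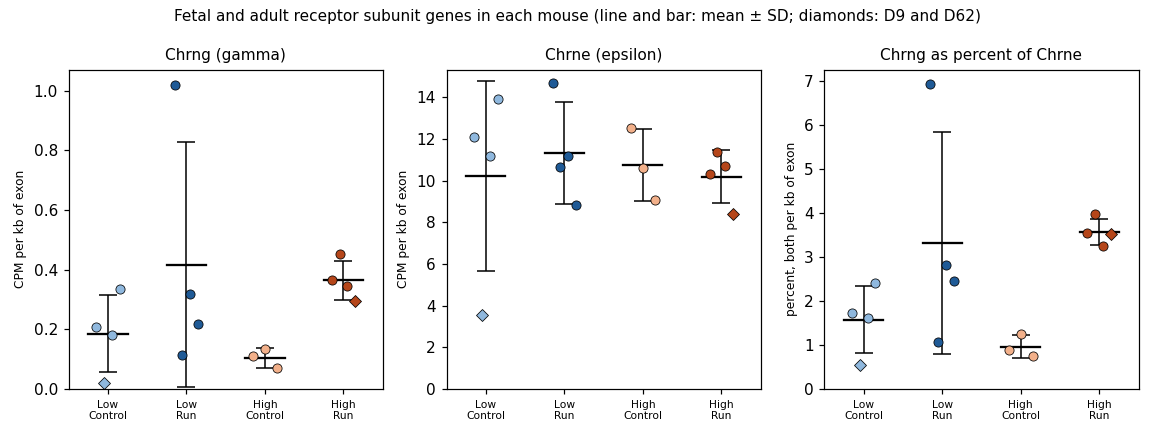
Level per kb of exon of Chrng (left) and Chrne (middle) and Chrng as a percent of Chrne (right) in each mouse, with the group mean and SD; diamonds mark D9 and D62. The share lies between 3.24 and 3.97% in the 4 High Run mice and between 0.761 and 1.25% in the 3 High Control mice, while the Low groups overlap.

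Ache ranged from 9.48 to 42.4 CPM in Low Control, 27.7 to 38.4 in Low Run, 35.5 to 45.7 in High Control and 22.7 to 39.4 CPM in High Run. D9 was lowest by far, and the 4 groups overlapped otherwise. Ncam1 was at 11.1, 13.4, 15.5 and 16.3 CPM in Low Control, 10.6, 11.5, 15.9 and 18.7 in Low Run and 11.7, 13.0, 17.0 and 17.4 CPM in High Run. The 3 High Control mice all stood at 10.1 CPM, with a coefficient of variation of 0.398%, below every mouse of the other groups. Runx1 followed a like pattern with more overlap, at 7.64 to 19.04 CPM in Low Control, 7.82 to 20.9 in Low Run, 5.60 to 7.94 in High Control and 7.15 to 17.9 CPM in High Run. Gadd45a ranged from 64.0 to 267 CPM in Low Control, 89.4 to 194 in Low Run, 60.5 to 131 in High Control and 77.7 to 175 CPM in High Run. Its 2 extremes within the Low Control and High Run groups were D9 at 267 CPM and D62 at 175 CPM. These mice also stood apart over all genes, at -90.3 and -58.1 on a first principal component that held 27.9% of the variance and on which the other 13 mice lay between -19.7 and 27.8. The main counts are therefore given with and without them.

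In High mice, running was compared with sedentary housing by the edgeR quasi-likelihood test. Over all genes 3.28% were higher in High Run at an unadjusted p under 0.05, and of the 9 genes 5 were. No gene of the 16920 passed the FDR of 0.1 in this comparison, where 5.18% had an unadjusted p under 0.05 in either direction and DESeq2 called 15. Chrng differed by a log2 fold change of 1.78 ± 0.73 (SE), Runx1 by 0.85 ± 0.38, Chrna1 by 0.75 ± 0.31, Chrnb1 by 0.60 ± 0.22 and Ncam1 by 0.55 ± 0.21, and the adjusted p was 0.956 for each of these 5 in edgeR. Chrnd had a log2 fold change of 0.69 ± 0.35, Gadd45a of 0.32 ± 0.42, Chrne of -0.08 ± 0.32 and Ache of -0.32 ± 0.34. The median log2 fold change of the 9 genes was 0.60, beside 0.05 over all genes tested. Chrna1, Chrng and Ncam1 were the members whose groups did not overlap, all of them higher in High Run, which held for 3.47% of all genes. Without D9 and D62, 4 of the 9 genes were higher at an unadjusted p under 0.05 (4.21% of all genes), namely Chrng, Chrnd, Ncam1 and Runx1, and Chrna1 (log2 fold change 0.66) and Chrnb1 (0.41) were no longer among them. The number fell to 1 without the High Control mouse D23 or the High Run mouse D52, to 2 without D67 and to 3 without D49. Each of the 5 kept a positive log2 fold change in every such fit.

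In Low mice none of the 9 genes had an unadjusted p under 0.05 in edgeR, although 13.4% of all genes did. None passed the FDR of 0.1 either, where DESeq2 called 10 genes, no member among them. The log2 fold change of Low Run over Low Control was 1.16 ± 0.63 for Chrng, 0.56 ± 0.28 for Chrna1, 0.50 ± 0.32 for Chrnd and 0.30 ± 0.20 for Chrnb1 (SE). The Chrng and Chrna1 values rested on 1 mouse to a large extent. Without D57 they were 0.20 and 0.25. Chrne stood at 0.15 ± 0.29, Ache at 0.24 ± 0.31, Runx1 at 0.12 ± 0.34, Ncam1 at 0.01 ± 0.19 and Gadd45a at -0.16 ± 0.39. Without D9 and D62 the sign of Chrne (-0.14), Ache (-0.07), Ncam1 (-0.02) and Gadd45a (0.29) turned. The median log2 fold change of the 9 genes was 0.24, beside 0.02 over all genes tested.

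**Figure D3:**
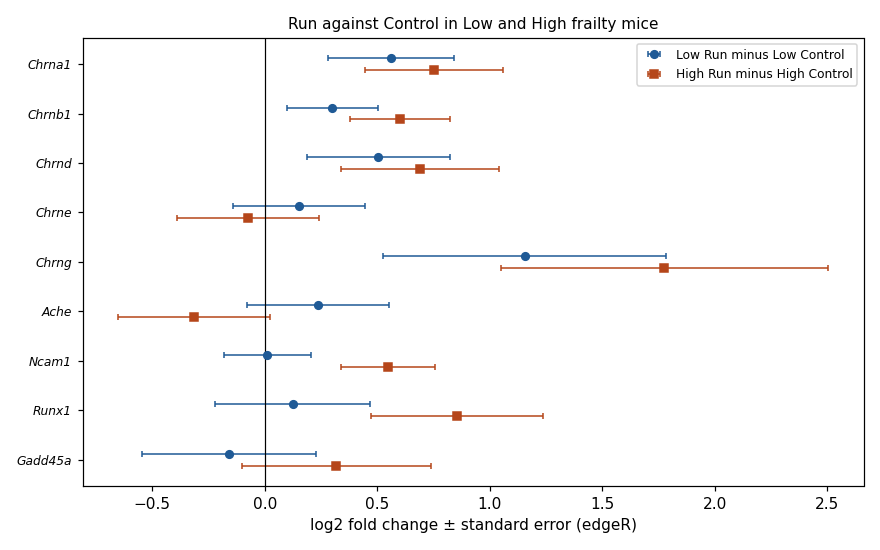
Log2 fold change (x axis, edgeR, bars show the standard error) of Run over Control for the 9 genes in Low mice (circles) and in High mice (squares). Chrna1, Chrnb1, Chrnd and Chrng lie to the right of 0 in both classes, and Chrne and Ache lie within 0.32 of 0.

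Whether the response to running differed between Low and High mice was tested directly by the Frailty × Run interaction. None of the 9 genes had an unadjusted p under 0.05 for it in edgeR, beside 7.93% of all genes, and neither edgeR nor DESeq2 called any gene at an FDR of 0.1. The interaction was 0.54 ± 0.28 for Ncam1 (log2 scale, SE; adjusted p = 0.6 in edgeR), 0.73 ± 0.51 for Runx1, 0.62 ± 0.95 for Chrng and -0.55 ± 0.46 for Ache. For Chrna1 and Chrnd it was 0.19 ± 0.41 and 0.18 ± 0.47. The smaller p of several genes in High mice is therefore not shown to be a different response.

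Averaged over both frailty classes, 4 of the 9 genes were higher in Run mice at an unadjusted p under 0.05, beside 5.60% of all genes. They were the 4 subunit genes other than Chrne. The log2 fold change was 1.47 ± 0.48 for Chrng, 0.66 ± 0.21 for Chrna1, 0.60 ± 0.24 for Chrnd and 0.45 ± 0.15 for Chrnb1 (SE). The adjusted p of these 4 in edgeR was 0.456 for Chrng and Chrna1, 0.46 for Chrnb1 and 0.51 for Chrnd. No gene of all those tested passed the FDR of 0.1 here in edgeR, and DESeq2 called 106, none of them a member. Chrna1, Chrnb1 and Chrng stayed under an unadjusted p of 0.05 in each of the 15 fits that left out 1 mouse, and Chrnd in 12 of them. Chrne (0.04 ± 0.22) and Ache (-0.04 ± 0.23) lay near 0, and so did Gadd45a (0.08 ± 0.28). Runx1 and Ncam1 stood at 0.49 ± 0.26 and 0.28 ± 0.14. Runx1 joined the others at 0.66 without D9 and D62, which made 5 of 9 beside 5.87% of all genes.

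The sedentary groups were compared for a difference that frailty class makes at rest. Of the 9 genes, 2 were lower in High Control than in Low Control at an unadjusted p under 0.05, beside 4.06% of all genes. Runx1 differed by a log2 fold change of -0.85 ± 0.38 and Ncam1 by -0.48 ± 0.21 (SE), both with an adjusted p of 0.704 in edgeR. Ncam1 was the member whose groups did not overlap, lower in all 3 High Control mice, as were 5.27% of all genes. Without D9 and D62, Runx1 stood at -0.60 and was no longer under 0.05, and Ncam1 stood at -0.51 and was. Neither gene kept an unadjusted p under 0.05 in the fits without D11 or without any one of the High Control mice. Chrng, Gadd45a and Chrnd had log2 fold changes of -0.81 ± 0.74, -0.67 ± 0.42 and -0.36 ± 0.35, and Ache one of 0.41 ± 0.34. The same 3 High Control mice serve in this comparison and in that of High Run with High Control, so the 2 are not independent. Between High Run and Low Run none of the 9 genes had an unadjusted p under 0.05, beside 2.51% of all genes, and the log2 fold changes lay between -0.19 and 0.17.

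Across the 15 mice, some pairs of members varied together, also once the group means were removed. Pearson's r of log2 CPM was 0.844 between Chrna1 and Chrng, 0.818 between Chrna1 and Chrnb1, 0.804 between Chrnd and Ncam1 and 0.732 between Runx1 and Gadd45a. These values were 0.854, 0.846, 0.874 and 0.771 without D9 and D62. With the group means removed, over all 15 mice, they were 0.743, 0.693, 0.828 and 0.71. Some other pairs then stood near 0 or low, such as Chrng with Runx1 at -0.0171, Chrna1 with Runx1 at 0.181 and Chrnb1 with Chrng at 0.248. With the group means kept but D9 and D62 left out, these pairs stood at 0.636, 0.62 and 0.676. Chrne with Chrng stood at 0.862 with the group means removed, and at 0.549 with the means kept and the 2 mice left out. The highest r of all pairs, 0.93 between Chrne and Ache, fell to 0.532 without the 2 mice, and Chrne with Gadd45a went from -0.577 to 0.0118. The mice share groups and library composition, and these values are descriptions.

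**Figure D4:**
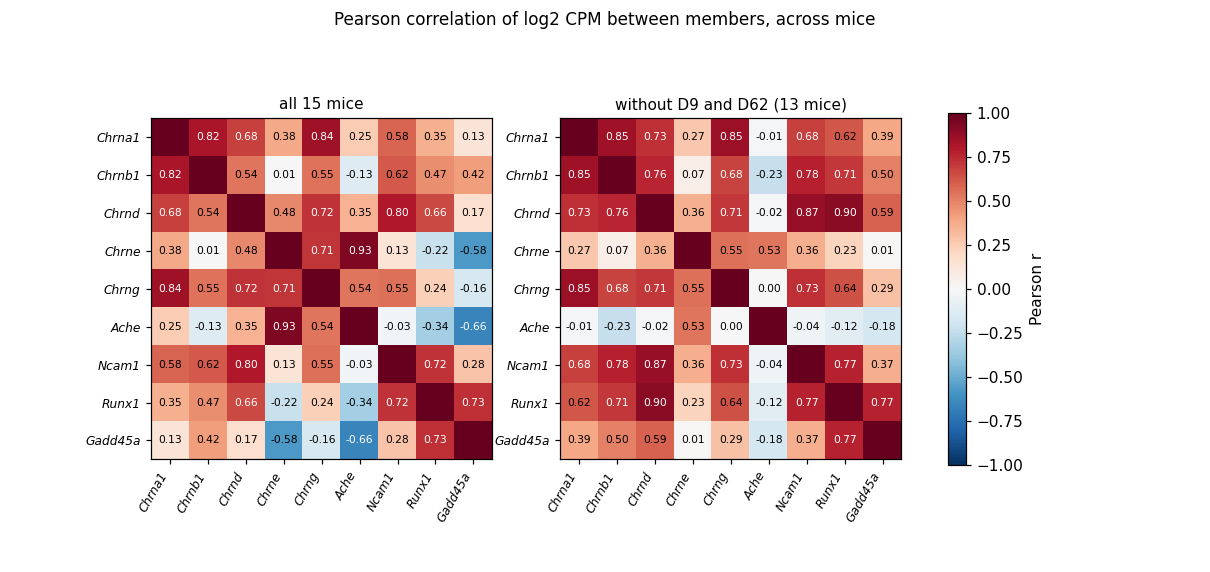
Pearson's r of log2 CPM (colour and number) between each pair of the 9 genes over all 15 mice (left) and over 13 mice without D9 and D62 (right). The block of Chrna1, Chrnb1, Chrnd, Chrng, Ncam1 and Runx1 is positive in both panels, whereas Gadd45a with Chrne and Ache goes from -0.58 and -0.66 on the left to 0.01 and -0.18 on the right.

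For each member the 3 genes with the most similar profile over the 15 mice were listed by Pearson's r. For Chrna1 they were Zfp157 (0.876), Spg21 (0.848) and Chrng (0.844), so that 1 receptor gene was among the nearest of another out of all genes. For Chrnb1 they were Ect2l (0.859), Myog (0.848), which encodes myogenin, and A930003A15Rik (0.844). For Ncam1 they included Aif1l (0.819) and Chrnd (0.804). Runx1 was nearest to Ankrd1 (0.861), a stretch-responsive ankyrin repeat gene, and Atp13a3 (0.822) was also among its 3. Chrnd was nearest to Mfsd7a (0.917), Osbpl7 (0.881) and Tnfrsf23 (0.836), and Chrng to Srrm4os (0.883), Gm4841 (0.864) and Tceal5 (0.857). The nearest genes of Chrne were Pdzd3 (0.94), Gm43063 (0.938) and Gm11266 (0.937), and those of Ache were Tmem233 (0.955), Plcd4 (0.951) and Gm29773 (0.946). For these last 6 genes r was between 0.574 and 0.747 without D9 and D62. Gadd45a was nearest to Rin2 (0.874), Cpt1a (0.846), a gene of fatty acid import into mitochondria, and Ip6k3 (0.832).

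A list of 18 further denervation-response genes was examined beside the members. In High mice 5 of the 18 were higher after running at an unadjusted p under 0.05, beside 3.28% of all genes, and none was lower. These were Sln, encoding sarcolipin, an inhibitor of the calcium pump (log2 fold change 2.67 ± 0.73), Myog (1.64 ± 0.54), the embryonic myosin gene Myh3 (1.29 ± 0.32), the ectodysplasin receptor gene Eda2r (1.10 ± 0.42) and Ankrd1 (1.00 ± 0.23), with an adjusted p of 0.956 for each in edgeR. The median over the 18 was 0.88. Without D9 and D62, 4 of the 18 were higher, beside 4.21% of all genes, Myh3 (1.09), Ankrd1 (1.00) and Sln (2.04) among them, whereas Myog stood at 0.85 and Eda2r at 0.51 and were not. In Low mice Sln alone of the 18 was higher (1.33 ± 0.62), beside 5.92% of all genes, and 4 were lower, beside 7.52%, namely the ubiquitin ligase genes of muscle wasting Trim63 (-2.27 ± 0.91), Fbxo32 (-1.67 ± 0.70) and Fbxo30 (-0.84 ± 0.30) and the TWEAK receptor gene Tnfrsf12a (-1.31 ± 0.61). None of these 5 had an unadjusted p under 0.05 without D9 and D62, where Trim63 stood at -0.72 and Fbxo32 at -0.81. Between the sedentary groups 7 of the 18 were lower in High Control, beside 4.06% of all genes, with Ankrd1 at -0.97 ± 0.23 (adjusted p = 0.704 in edgeR, as for the other 6), Myh3 at -0.95 ± 0.32, Eda2r at -1.01 ± 0.42 and Tnfrsf12a at -1.93 ± 0.69, and 4 were lower without D9 and D62, beside 2.39%. Tnfrsf12a then stood at -0.72 and was no longer among them. For the interaction 6 of the 18 were positive at an unadjusted p under 0.05, beside 5.24% of all genes, and 2 were without D9 and D62, beside 2.68%. The classical regulators Myod1 and Hdac4 had log2 fold changes of 0.26 ± 0.51 and 0.10 ± 0.20 in High mice.

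**Figure D5:**
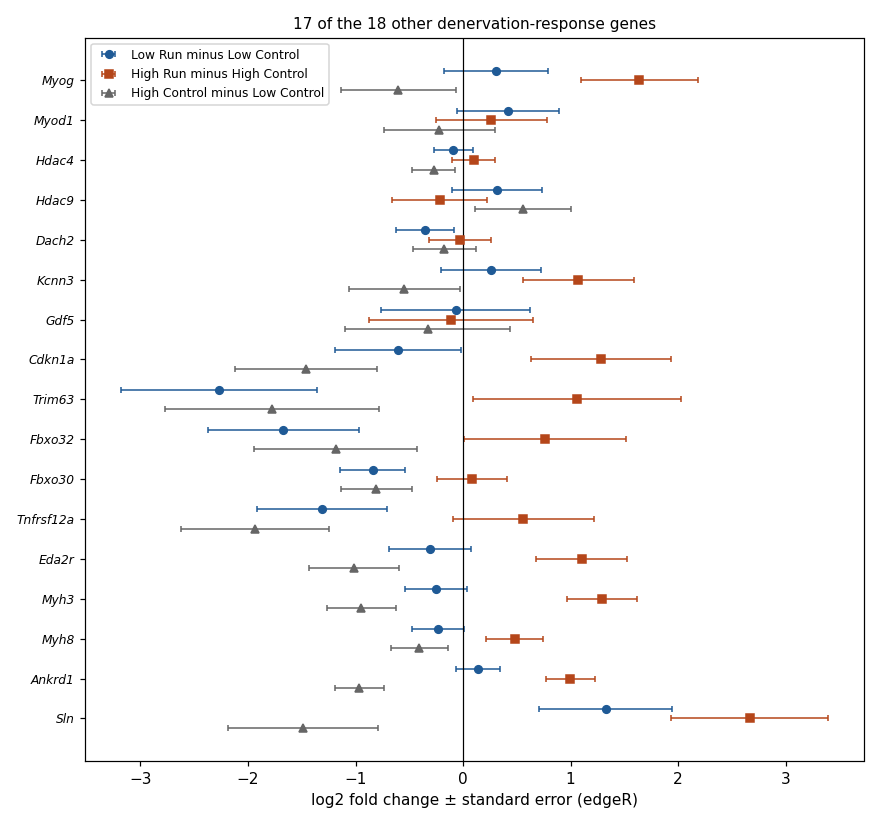
Log2 fold change (x axis, edgeR, bars show the standard error) of 17 of the 18 further denervation-response genes for Low Run over Low Control (circles), High Run over High Control (squares) and High Control over Low Control (triangles). Sln, Myog, Myh3, Eda2r and Ankrd1 lie between 1.00 and 2.67 for the squares, and Ankrd1, Myh3 and Eda2r lie near -1 for the triangles, which share the High Control mice with the squares.

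Of 20 partner genes that build or anchor the endplate, 19 passed the filter, Nrg1 being the exception. In High mice 1 of them, Utrn, which encodes utrophin, was higher after running at an unadjusted p under 0.05 (0.33 ± 0.14), beside 3.28% of all genes. Leaving out D9 and D62 gave 2 of the 19, beside 4.21%, as the endplate collagen gene Col13a1 (0.73) joined Utrn. In Low mice none was higher or lower at that level in edgeR. Between the sedentary groups 2 of the 19 were lower in High Control at an unadjusted p under 0.05, beside 4.06% of all genes. Musk, the receptor kinase that organises the endplate, stood at -1.32 ± 0.49 and its activator Dok7 at -0.64 ± 0.20. Both had an adjusted p of 0.704 in edgeR. Without D9 and D62 they stood at -0.99 and -0.51, and Dok7 but not Musk was under that level. The number was again 2 of the 19, beside 2.39%, as Erbb2, a neuregulin receptor gene, joined Dok7 at -0.43. For the interaction 3 of the 19 were positive at an unadjusted p under 0.05, beside 5.24% of all genes. The interaction was 1.73 ± 0.66 for Musk, 0.50 ± 0.19 for Utrn and 0.58 ± 0.26 for Erbb2, each with an adjusted p of 0.6. With D9 and D62 left out, Musk stood at 1.20 and Erbb2 at 0.50, no longer under an unadjusted p of 0.05. Of the 19 partner genes 1 then remained under it in place of 3, beside 2.68% of all genes that were positive. Rapsn, whose product clusters the receptors, and Colq, the collagen tail that anchors acetylcholinesterase, had log2 fold changes of 0.07 ± 0.17 and -0.02 ± 0.28 in High mice.

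Of 11 other nicotinic subunit genes, 3 passed the filter, Chrna2, Chrna9 and Chrnb2. In High mice 1 of the 3, Chrna9, was higher at an unadjusted p under 0.05, beside 3.28% of all genes. Its log2 fold change was 2.71 ± 1.08, and without D9 and D62 it was 0.86 and no longer under that level. Chrna9 ranged from 2 to 543 read pairs over the 15 libraries, the highest in D62. In Low mice 1 of the 3, Chrna2, was lower at that level (-1.45 ± 0.51), beside 7.52% of all genes. Without these 2 mice Chrna2 stood at -0.89 and was still under that level, beside 3.65%. Among 7 relatives and cofactors of the remaining members, 6 passed the filter. Cbfb, which encodes a partner of the Runx proteins, was at -0.60 ± 0.13 in High Run against High Control (adjusted p = 0.956 in edgeR). At an unadjusted p under 0.05, 1.9% of all genes were lower in this comparison. The groups did not overlap, as for 3.6% of genes lower in High Run, and the sign was opposite to that of Runx1, with -0.59 without D9 and D62. In Low mice 1 of the 6, Runx2, was higher after running at an unadjusted p under 0.05 (0.75 ± 0.26), beside 5.92% of all genes. Gadd45b and Gadd45g had log2 fold changes of -0.34 ± 0.45 and -0.14 ± 0.64 in High mice.

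Markers of other cell types in the muscle moved with some of these groups, and their part in the results was not tested. The 7 Schwann cell markers summed to 99.7 to 301 CPM in High Run, the highest in D62, and 134 to 149.5 CPM in High Control. At an unadjusted p under 0.05, 2 of the 7 were higher in High Run, beside 3.28% of all genes. Ngfr was among them, higher by 1.10 ± 0.42 (log2). Without D9 and D62 Ngfr stood at 0.58 and was not under that level. The 5 leukocyte markers summed to 27.0 to 72.8 CPM in High Run, 25.3 to 36.9 in High Control, 45.4 to 61.04 in Low Run and 28.0 to 46.9 CPM in Low Control. At an unadjusted p under 0.05, 1 of the 5 was higher in High Run, beside 3.28% of all genes, and 2 in Low Run, beside 5.92%. They were Cd68, a macrophage gene, in High Run by 1.02 ± 0.26 (log2), and Ptprc and Itgam in Low Run by 1.08 ± 0.40 and 1.02 ± 0.41. When D9 and D62 were left out, 4 of the 5 were higher in High Run at that level, beside 4.21% of all genes. Cd68 was then higher by 1.16, Adgre1 by 1.16, Ptprc by 0.89 and Csf1r by 0.68 (log2). The 4 satellite cell markers summed to 35.0 to 74.6 CPM in High Run and 36.0 to 41.9 CPM in High Control. The 74.6 CPM was that of D62, and the other High Run mice lay at 35.0 to 37.0 CPM. In edgeR 0 of the 4 had an unadjusted p under 0.05. The 4 erythroid genes were all higher in High Run at an unadjusted p under 0.05, beside 3.28% of all genes, by a median of 2.17 (log2). Their adjusted p was 0.956 in edgeR. They summed to 361 to 3616 CPM in High Run against 297 to 459 CPM in High Control. The highest sum was that of D53, and D52 at 361 CPM lay within the High Control range. Myh4, the myosin of the fastest fibres, was lower in Run mice of both classes, by -0.48 ± 0.17 (log2) in Low and -0.44 ± 0.19 in High mice, with no overlap of the groups, as for 3.59% and 3.6% of all genes. Its fold change in High mice was -0.35 without D9 and D62 and was then not under an unadjusted p of 0.05. The fibroblast (4), endothelial (3) and adipocyte (3) lists had 0, 0 and 0 members at an unadjusted p under 0.05 in High mice, where edgeR found 5.18% of all genes. In Low mice 1 of the 3 adipocyte markers was lower at that level, beside 7.52% of all genes. All 3 had negative log2 fold changes in both classes, with a median of -0.57 in Low and -0.44 in High mice.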

How the data were processed

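The deposited values used here are raw counts per gene. According to the methods of the study and the submitters' processing notes, the authors aligned read pairs to mm10 with STAR 2.7.9a and counted uniquely aligned proper pairs with featureCounts over Ensembl genes, leaving out mitochondrial genes. A second deposited table of transformed values was not used. Symbols and positions came from GENCODE M21 (55190 of 55450 identifiers matched) and promoter sequences from RefSeq (GRCm38.p6), which held 7 of the 9 members. The members and lists were chosen with earlier results of these data known.

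Genes were filtered with filterByExpr, libraries scaled by TMM and a mean per group fitted over all 15 mice in edgeR 4.0.16 (quasi-likelihood F test, Benjamini-Hochberg adjustment over the 16920 genes tested, FDR of 0.1). The standard error is the log2 fold change divided by the square root of F. CPM values are TMM-scaled, and levels between genes are given per kb of the exon union. Alternatives were DESeq2 1.42.0, limma 3.58.1 voom with quality weights, RLE scaling, no filter, 2 groups only, an FDR of 0.05, the fit without D9 and D62, and the omission of each mouse. The list counts without D9 and D62 were added after seeing the data. The scripts were tested on simulated data. Besides the members, most genes named were those of each list with the lowest unadjusted p under 0.05, up to 4 per comparison. Where none qualified, up to 2 of high expression were named. The 3 nearest genes of each member were also named. Of the denervation-response genes, all under a p of 0.05 were named for running in High and in Low mice, beyond the limit of 4. Not every marker gene under a p of 0.05 was named. Further list members named in the text, among them Myod1, Hdac4, Rapsn, Colq, Gadd45b and Gadd45g, were chosen for their known roles after their values were seen. Nothing says how many litters or cages the mice came from, so p-values measure the spread between these mice. Libraries of a group differed beyond sampling noise (chi-square per degree of freedom 15.7 to 191 over 21 pairs), and none was counted as a duplicate. Some genes of the lists are not reported here by name.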

Additional observations from a re-analysis of the deposited data

Results flagged for a closer look

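Of 27 combinations of a member and a group of 4 mice, 1 held a mouse set far apart from the rest. Ache was at 27.67 CPM in the Low Run mouse D68, with 0.923 of the range of the group between it and the next mouse, above the Dixon limit of 0.829 for 4 values. Chance gives about 1 such case in 20. The 3 High Control mice were too few for this check.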

How the results depend on the processing

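Of the 54 combinations of a member and a comparison, 33 kept their direction under every alternative run, and no member was called at an FDR of 0.1 under any of them (lowest adjusted p 0.144). No paired analysis was possible because the groups share no replicate numbers. Over all genes, where edgeR called 0 in each comparison, DESeq2 called 10 in Low Run against Low Control, 15 in High Run against High Control and 106 for Run averaged over both classes. Without the filter on low counts edgeR called 86, 19, 4 (interaction), 6 (High Run against Low Run) and 81 (averaged), and voom called 45 in High Run against High Control. With single mice left out edgeR called 0 in all 6 comparisons. The number of the 9 genes at an unadjusted p under 0.05 was 2 without the filter in Low Run against Low Control, 2 under voom for the interaction, and 1 both under voom and without D9 and D62 in High Control against Low Control. This number ran from 0 to 2 in Low Run against Low Control, 1 to 6 in High Run against High Control, 0 to 1 for the interaction, 0 to 2 in High Control against Low Control and 3 to 6 averaged over both classes when 1 mouse was left out. Leaving out a mouse leaves groups of 2 to 4. With the longest transcript as length 4 of the 9 genes kept their rank by level. Of the 18 denervation-response genes the number without D9 and D62 was 0 higher and 0 lower in Low Run against Low Control, 2 higher for the interaction, 4 lower in High Control against Low Control and 1 lower (Trim63) averaged over both classes. The shares of all genes beside these counts, in the same order, were 3.68%, 3.65%, 2.68%, 2.39% and 3.92%. The log2 fold changes that turned sign in at least 1 alternative were most often those of Chrne and Gadd45a, and the cause was not tested. In Low Run against Low Control, under voom the value was -0.0687 for Chrne and 0.23 for Gadd45a and without D9 and D62 the value was -0.14 for Chrne, -0.0699 for Ache, -0.0218 for Ncam1 and 0.29 for Gadd45a. It ran from -0.14 to 0.34 for Chrne, from -0.0699 to 0.45 for Ache, from -0.16 to 0.12 for Ncam1, from -0.14 to 0.37 for Runx1 and from -0.41 to 0.29 for Gadd45a when 1 mouse was left out. In High Run against High Control, under voom the value was 0.0418 for Chrne and without D9 and D62 the value was 0.000400 for Chrne. It ran from -0.18 to 0.0491 for Chrne when 1 mouse was left out. For the interaction, under voom the value was 0.11 for Chrne and -0.0600 for Gadd45a and without D9 and D62 the value was 0.14 for Chrne and -0.26 for Gadd45a. It ran from -0.10 to 0.37 for Chrnd and from -0.42 to 0.0582 for Chrne when 1 mouse was left out. In High Control against Low Control, under voom the value was -0.16 for Chrne and without D9 and D62 the value was -0.22 for Chrne. It ran from -0.37 to 0.0278 for Chrna1 and from -0.22 to 0.26 for Chrne when 1 mouse was left out. In High Run against Low Run, under voom the value was 0.14 for Chrnd, 0.60 for Chrng and 0.14 for Runx1 and without D9 and D62 the value was -0.0408 for Chrna1 and -0.00900 for Chrnb1. It ran from -0.14 to 0.36 for Chrna1, from -0.00936 to 0.31 for Chrnb1, from -0.47 to 0.00769 for Chrnd, from -0.51 to 0.76 for Chrng, from -0.0596 to 0.22 for Ncam1, from -0.32 to 0.14 for Runx1 and from -0.47 to 0.0617 for Gadd45a when 1 mouse was left out. For Run against Control averaged over both classes, under voom the value was -0.0135 for Chrne and without D9 and D62 the value was -0.0698 for Chrne. It ran from -0.11 to 0.13 for Chrne, from -0.20 to 0.0678 for Ache and from -0.0696 to 0.30 for Gadd45a when 1 mouse was left out. Counts of 2 to 101 read pairs limit what can be said of Chrng in single mice.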
